A study of Mus musculus with 9 samples.

Results

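The first interval of the time course runs from 4.5DDC to 5.5DDC (DDC, days in differentiation conditions) in wild-type neural stem cells made from mouse embryonic stem cells. It was taken as every library of these time points, which are 6 of the 9 libraries analysed here, and as all genes that passed a filter on low counts, which are 14742 of 38197 gene symbols. The cells came from 1 embryonic stem cell line of the mouse strain 129 and were wild type. Both groups grew as a monolayer and had received retinoic acid (RA) together with SAG, an agonist of the Shh signal transducer Smo, from day 0 to day 3. Neither agent is listed after that day in the labels, whereas the study's methods place the change to medium without them somewhat later. Either way the groups differ in the time since removal as well as in age. At 4.5DDC or 5.5DDC magnetic beads were used to select cells carrying prominin-1, which neural progenitors expose on their surface, and polyadenylated RNA was sequenced, with 3 libraries per time point. In another field of the labels the same times are written as 4 and 5 days. They number the libraries of each time point but do not say that the numbers stand for separate cultures, so p-values measure the spread between these libraries, which may be technical.

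Ventral neural progenitors of the hindbrain are patterned by Shh from the floor plate, the strip of cells along the ventral midline that secretes Shh and axon guidance proteins. In culture, RA and an Shh agonist together give progenitors of this ventral hindbrain kind. Such progenitors change with age: they first make motor neurons, then serotonergic neurons and later glia, and several genes of their early state encode RNA-binding proteins such as Lin28a that are opposed by the microRNA let-7. Comparing 4.5DDC with 5.5DDC asks which functions and identities move within a single day of this progression.

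The libraries were compared in counts per gene, rounded where not whole. These counts summed to between 11066568 and 25506193 per library, so that a floor of 3 counts lies at 0.118 to 0.271 CPM (counts scaled to the library total). Replicate 1 of both time points stood apart from replicates 2 and 3. In a principal component analysis of the 6 libraries, the first component held 48.6% of the variance and separated replicate 1 from the others, and the second held 27.8% and separated the time points. The replicate number was therefore kept as a block in the test, and changes within the numbers are given for most gene lists and for some genes. Levels are the authors' FPKM values, which are scaled to gene length and library size, and log2 fold changes come from the counts.

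Between 4.5DDC and 5.5DDC, 212 genes were called (1.44% of the genes tested), at an adjusted p under 0.05 (edgeR's quasi-likelihood F-test, adjusted after Benjamini and Hochberg). Of these, 187 rose (1.27%) and 25 fell (0.17%), and 2628 genes had an unadjusted p under 0.05, 1493 higher and 1135 lower. The median log2 fold change was 1.25 for the genes that rose and −1.18 for those that fell, against 0.0053 over all genes tested. All 212 genes moved in the same direction within each of the 3 replicate numbers, and the libraries of the time points did not overlap for 170 of them, against 25.4% of all genes tested. Of all genes tested, 11.7% were higher at 5.5DDC without overlap and 13.7% lower, so rises did not outnumber falls by that measure. The count moved with the fit. It was 11 without the block, 2345 in a fit of only the 6 libraries compared and 0 in a fit of replicates 2 and 3 alone, where 2268 genes had an unadjusted p under 0.05. It was also 0 without replicate 2 of 4.5DDC and without replicate 2 of 5.5DDC. The 212 genes kept their direction in each of these fits, and all 212 were called again in the fit of 6 libraries. Since all 212 moved in 1 direction within each number, these fits could hardly reverse them. Their kept direction is therefore no separate support. In the fit of 6 libraries 9.15% of all genes were called higher and 7.37% lower. In each of the 54 gene lists used here, at most 1 gene was called without the block, none with replicates 2 and 3 only and at most 3 with 1 of the 6 libraries left out. These lists were chosen with earlier results of these data known, so a shared direction of their members is not independent evidence.

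**Figure D1:**
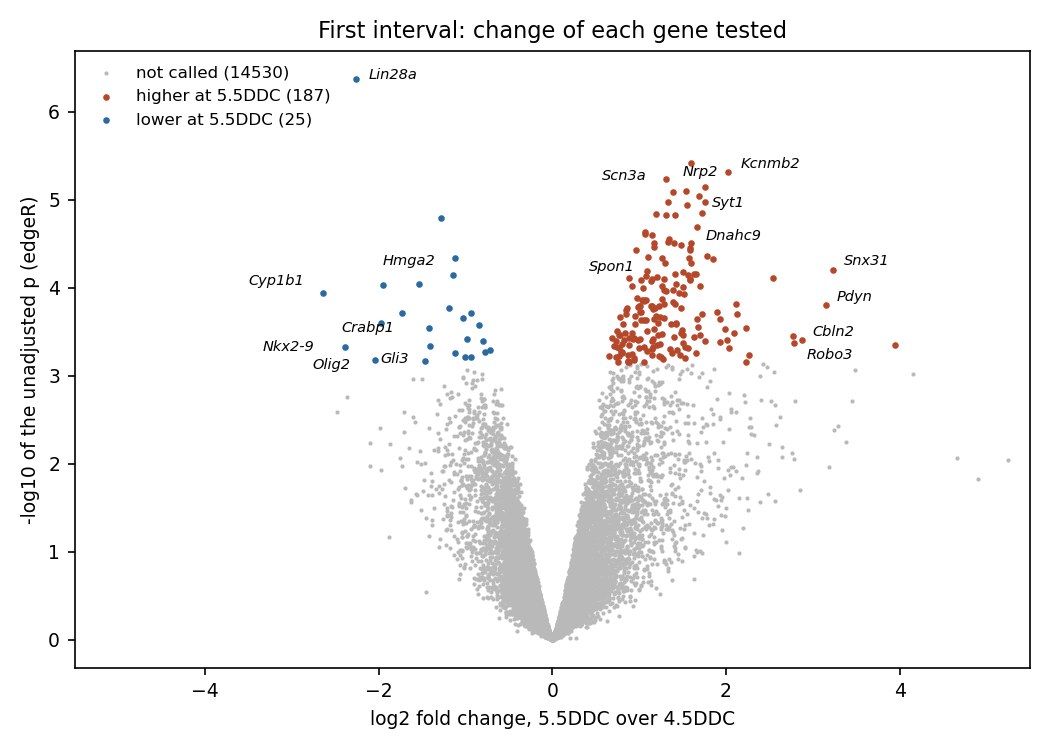
Change of each of the 14742 genes tested, as log2 fold change of 5.5DDC over 4.5DDC on the x axis against −log10 of the unadjusted p on the y axis, with the 187 genes called higher in red, the 25 called lower in blue and 14530 others in grey. Rises outnumber falls among the called genes but not among all genes whose libraries did not overlap. The smallest p belongs to Lin28a, which fell by 2.26.

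The prominin-1 sort was checked against 18 markers of neural progenitors, of which none was called (0 of 18, with 3 of 18 at an unadjusted p under 0.05) and whose log2 fold changes ran from −2.09 to 0.51. Of these 18, 1 was higher and 2 lower at an unadjusted p under 0.05. In the fit of 6 libraries 2 were called higher and 2 lower, where 9.15% and 7.37% of all genes were. Their median of 0.04 ran from −0.0012 to 0.17 with 1 of the 6 libraries left out. Their summed level did not overlap, at 2804 to 3233 FPKM at 4.5DDC and 3530 to 3995 FPKM at 5.5DDC. Prom1, which encodes prominin-1 itself, had 89.3, 62.8 and 85.2 FPKM in replicates 1, 2 and 3 of 4.5DDC and 107, 99.9 and 104 FPKM at 5.5DDC (log2 fold change 0.34, adjusted p = 0.369). Sox2, a transcription factor of neural stem cells, lay between 78.2 and 88.0 FPKM at 4.5DDC and between 82.0 and 89.1 FPKM at 5.5DDC, so the groups overlapped and no direction can be given. Nkx2-2, which defines the ventral lineage, had 7.87 to 14.2 FPKM and then 10.2 to 17.9 FPKM (log2 fold change 0.30, adjusted p = 0.465). Lists of other cell types were checked as well. No gene of the endoderm, endothelial and blood, muscle or epithelial lists was called (0 of 17, 0 of 8, 0 of 6 and 0 of 13 by edgeR, with 2, 2, 1 and 2 at an unadjusted p under 0.05). Their summed levels overlapped between the time points, at 415 to 618 and 500 to 635 FPKM for endoderm, 3.96 to 7.67 and 3.51 to 11.6 for endothelium and blood, 3.88 to 9.96 and 3.17 to 7.20 for muscle, and 37.5 to 46.6 and 33.5 to 43.9 for epithelium. The defining markers Sox10, Myod1, Krt5 and the globin genes Hba-a1, Hba-a2 and Hbb-y were listed at 0 in all 6 libraries. Other key markers were expressed. Kdr of the endothelial list had a log2 fold change of 0.70 (adjusted p = 0.204 by edgeR), with 4 genes of that list higher and 4 lower. Twist1 of the neural crest and mesenchyme list had 0.65 (adjusted p = 0.152 by edgeR) and was called higher in the fit of 6 libraries, with 10 genes of that list higher and 8 lower. Of 18 neural crest and mesenchyme genes, 1 rose, the collagen gene Col3a1. Of this list 3 genes were higher and 4 lower at an unadjusted p under 0.05, 4 and 3 were called so in the fit of 6 libraries, and the sum over the list was 103 to 203 FPKM at 4.5DDC and 82.0 to 165 FPKM at 5.5DDC.

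The heterochronic genes, which set the pace of developmental stages, included 6 of the 25 genes that fell. Lin28a and Lin28b encode RNA-binding proteins that block the maturation of let-7, and let-7 in turn binds the 3′UTRs of both and of Hmga2, Trim71 and other early genes through its seed. The sequences below are shown because 6 heterochronic genes that fell hold matches to this seed. Mature mouse let-7 microRNAs, from the RefSeq annotation of GRCm38.p6, share the seed of bases 2 to 8 in capitals, as do 9 of the 10 let-7 sequences in that table:
let-7a-5p: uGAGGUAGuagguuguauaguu
let-7b-5p: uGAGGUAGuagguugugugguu
let-7g-5p: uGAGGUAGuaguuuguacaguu
Let-7a-5p is the product of Mirlet7a-1 at chr13:48538239-48538260 on the minus strand, let-7b-5p lies at chr15:85707325-85707346 and let-7g-5p at chr9:106178846-106178867, both on the plus strand. Mature let-7 is not polyadenylated and was not measured, and 4 let-7 gene symbols of the list were listed at 0 in all 6 libraries.

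A match to this seed reads CTACCTC in a transcript. In each of the 6 heterochronic genes that fell, 1 such match in the longest annotated 3′UTR is given here on the strand of the gene, in capitals within 30 bases, with the position of the capitals on GRCm38:
Lin28a, chr4:134005190-134005196: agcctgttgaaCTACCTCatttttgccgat
Lin28b, chr10:45381023-45381029: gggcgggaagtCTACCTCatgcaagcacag
Hmga2, chr10:120364225-120364231: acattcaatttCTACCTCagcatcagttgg
Trim71, chr9:114512473-114512479: ttgcctaagtcCTACCTCagcttaaatttt
Nr6a1, chr2:38727450-38727456: gacaaagacaaCTACCTCaatggaaacagg
Prtg, chr9:72912573-72912579: ctgctgaatagCTACCTCagtttgctgtgg
Prtg lies on the plus strand and the other genes on the minus strand. Lin28a and Prtg held 2 matches each, Lin28b, Hmga2 and Trim71 held 4 each and Nr6a1 held 8. At least 1 match was present in 10.94% of 12983 genes tested with an annotated 3′UTR, in 9 of 24 genes that fell (37.5%, with none in the other 15) and in 25 of 181 genes that rose (13.81%). The 3′UTRs were longer in the genes that fell and in those that rose (medians of 1815.5 and 1927 bases) than over all genes (1251 bases). Outside the heterochronic list 3 of 18 genes that fell held a match, and these were Greb1, Greb1l and Sp8. Over the 22 heterochronic genes tested the share was 72.73%, but that list was compiled in part from known let-7 targets. Of its 16 members that were not called, 6 held no match, 6 held 1, 2 held 2 and 2 held 4 (Igf2bp1 and Hic2). A match is a description of the sequence and does not show binding.

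Of the 22 heterochronic genes, 6 fell, none rose and 21 had a negative log2 fold change, with a median of −0.44. The median was −0.39, −0.52 and −0.49 within replicates 1, 2 and 3. Of the 22, 1 was called without the block, none with replicates 2 and 3 only and between 0 and 3 with 1 of the 6 libraries left out. Lin28a, at chr4:134003330-134018841, had 28.5, 32.0 and 24.6 FPKM in the 3 libraries of 4.5DDC and 5.73, 6.21 and 6.76 FPKM in those of 5.5DDC. All 5.5DDC libraries lay far below all 4.5DDC libraries, and in log2 units it fell by 2.26 ± 0.19 (SE here and throughout, adjusted p = 0.00626 from edgeR). Hmga2, which encodes a chromatin protein of self-renewing progenitors, had 43.3, 64.4 and 57.9 FPKM and then 22.7, 25.7 and 26.4 FPKM. It fell by 1.14 ± 0.17 (adjusted p = 0.0221), and its libraries did not overlap. Lin28b had 19.3, 20.2 and 19.2 FPKM at 4.5DDC and 12.4, 9.35 and 9.03 FPKM at 5.5DDC, and it fell by 1.002 ± 0.20 (adjusted p = 0.0458). Trim71, a ubiquitin ligase and RNA-binding protein of early development, went from 8.51, 7.96 and 8.31 FPKM to 5.48, 4.21 and 3.77 FPKM and fell by 0.94 ± 0.16 (adjusted p = 0.0294). For both genes the lowest level of 4.5DDC lay well above the highest of 5.5DDC, which was that of replicate 1.

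Prtg encodes protogenin, a cell surface protein of the early neural tube. It had 64.5, 36.2 and 42.5 FPKM at 4.5DDC and 34.0, 18.2 and 17.03 FPKM at 5.5DDC, and fell by 1.12 ± 0.16 (adjusted p = 0.0195). Replicate 1 was the highest at both times, and its 5.5DDC level came close to the lowest level of 4.5DDC without reaching it. Nr6a1, which encodes an orphan nuclear receptor of the early embryo, had 19.5, 12.1 and 16.2 FPKM and then 12.9, 7.57 and 9.33 FPKM. Its groups overlapped through replicate 1 of 5.5DDC and replicate 2 of 4.5DDC, but it was lower within each number, and it fell by 0.79 ± 0.15 (adjusted p = 0.0382). Over the following day, from 5.5DDC to 6.5DDC, the list had a median of −0.46 and 6 of its members fell, among which Lin28a changed by −1.24 (adjusted p = 0.024) and Hmga2 by −1.003 (adjusted p = 0.0329). That comparison shares the 5.5DDC libraries with the first one.

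**Figure D2:**
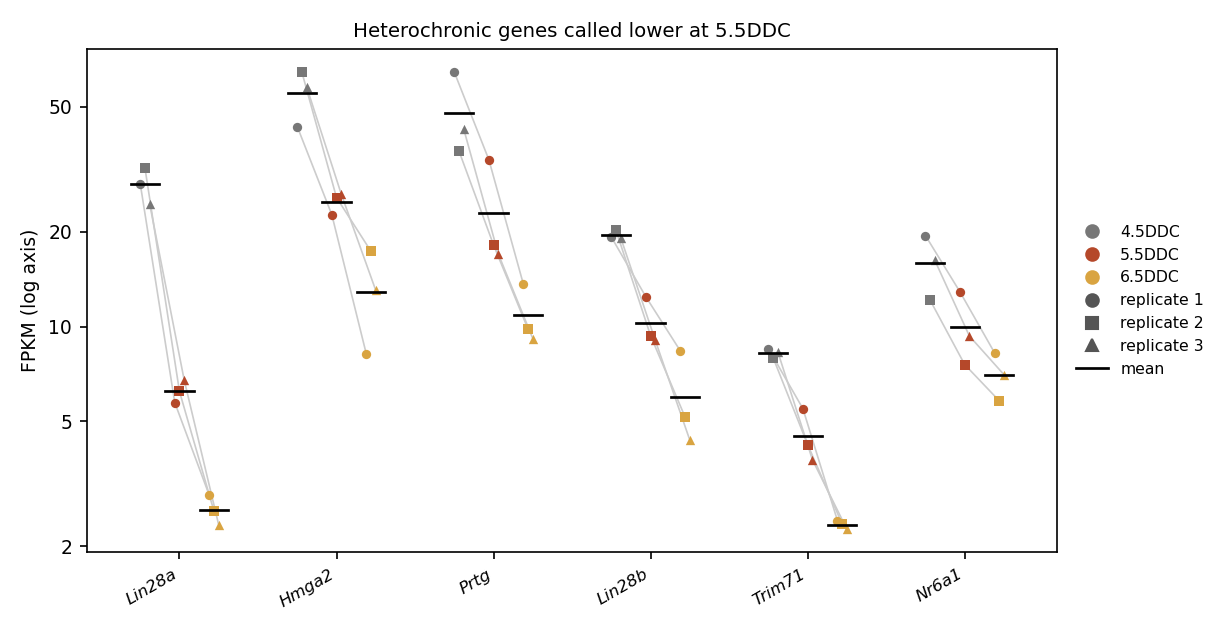
FPKM (log axis) of the 6 heterochronic genes called lower at 5.5DDC, with each library as a point shaped by replicate number, lines joining libraries of 1 number, bars at the means and the 6.5DDC libraries beside them. Lin28a goes from between 24.6 and 32.0 FPKM to between 5.73 and 6.76 FPKM, and Nr6a1 is the gene whose 4.5DDC and 5.5DDC libraries overlap.

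Of 13 floor plate genes tested, 6 rose, none fell and all 13 had a positive log2 fold change, with a median of 0.78. Within replicates 1, 2 and 3 the median was 0.85, 0.97 and 0.89, and 11 of the 13 were called higher in the fit of 6 libraries, where 9.15% of all genes were. None of the 13 was called without the block or with replicates 2 and 3 only, and between 0 and 2 were with 1 of the 6 libraries left out. Spon1, at chr7:113765998-114043370, encodes F-spondin, a matrix protein that the floor plate secretes to guide commissural axons. It had 239, 124 and 151 FPKM at 4.5DDC and 561, 351 and 363 FPKM at 5.5DDC, without overlap, and rose by 1.29 ± 0.20 (adjusted p = 0.0221). Corin, at chr5:72300025-72504473, encodes a membrane protease that marks ventral midline progenitors. Its level was 66.4, 11.3 and 14.2 FPKM and then 133, 38.9 and 44.5 FPKM, so that replicate 1 was several times higher than the other libraries at both times and the groups overlapped. Within the numbers its log2 changes were 0.97, 1.79 and 1.25, and in the fit it rose by 1.34 ± 0.18 (adjusted p = 0.0183).

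Ferd3l, a bHLH factor of the floor plate, had 26.4, 14.9 and 17.2 FPKM at 4.5DDC and 64.8, 40.3 and 38.6 FPKM at 5.5DDC and rose by 1.26 ± 0.18 (adjusted p = 0.0195). Every 5.5DDC library of this gene lay above every 4.5DDC library, and replicate 1 was again the highest. Slit2, which encodes a repellent of commissural and motor axons, was the most abundant of the called members, with 376, 205 and 319 FPKM and then 637, 460 and 444 FPKM. It rose by 0.92 ± 0.18 (adjusted p = 0.0441) without overlap. Cmtm8, which encodes a small membrane protein, rose by 0.76 ± 0.15 (adjusted p = 0.045), although its libraries overlapped because replicate 1 of 4.5DDC, at 75.4 FPKM, exceeded replicates 2 and 3 of 5.5DDC, at 71.2 and 66.9 FPKM.

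The best-known genes of the floor plate had positive log2 fold changes that did not pass the threshold. Shh had 185, 117 and 138 FPKM at 4.5DDC and 325, 226 and 212 FPKM at 5.5DDC, with no overlap (log2 fold change 0.75, adjusted p = 0.114), and a transcript on the other strand covers 28.35% of its exons. Ntn1, which encodes the axon attractant netrin-1, had 329, 251 and 215 FPKM and then 543, 406 and 426 FPKM (log2 fold change 0.76, adjusted p = 0.0604). Foxa2, the transcription factor that specifies the floor plate, had 85.6, 62.2 and 46.5 FPKM and then 100, 72.9 and 67.5 FPKM, and its groups overlapped (log2 fold change 0.29, adjusted p = 0.486). In these bulk libraries, fewer cells of a type and less RNA per cell cannot be told apart, so a rise of floor plate genes can stand for more such cells in the sorted fraction or for more of these transcripts in each. The summed level of the list ran from 1255 to 2141 FPKM at 4.5DDC and from 2432 to 3779 FPKM at 5.5DDC. From 5.5DDC to 6.5DDC the median of the list was 0.11.

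Genes of motile cilia, the beating cilia built on a scaffold of axonemal dyneins, moved with a larger median than any other group described here. Of 55 tested, 9 rose, none fell and 52 had a positive log2 fold change, and 40 were higher at an unadjusted p under 0.05. The median was 0.98, and within replicates 1, 2 and 3 it was 0.86, 1.14 and 1.004. In the fit of 6 libraries 38 of the 55 were called higher, against 9.15% of all genes. None was called without the block or with replicates 2 and 3 only, and between 0 and 2 were with 1 of the 6 libraries left out. Levels were mostly low, and the sum over the list ran from 224 to 395 FPKM at 4.5DDC and from 436 to 765 FPKM at 5.5DDC.

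Regulatory factors of the RFX family, which act in ciliated cells, bind the X-box, an inverted repeat of GTTGCC. That half-site was searched on both strands (GTTGCC or its complement GGCAAC) in RefSeq promoters of GRCm38.p6, from 250 bases before to 50 bases after the start of each gene. It was present in 5 of the 9 cilium genes that rose (55.56%) and in 24 of the 46 members of the list with a promoter in the table (52.17%). Among the genes that rose outside the list it was present in 24 of 125 with a promoter (19.2%), and among all genes tested in 1607 of 10677 (15.05%). The whole repeat, searched as GTTNCC and GGNAAC spaced by 1 base with N as any base, was present in 1 of the 9 genes that rose, Fam183b, in 1 of the 46 list members (2.17%) and in 23 of all 10677 genes (0.215%). The half-site matches nearest to the start of the 5 genes are shown on the strand of the gene, in capitals within 30 bases, with their positions:
Drc1, chr5:30281382-30281387: ctgctttcccttGGCAACggcttgttccta
Fam183b, chr11:58801971-58801976: agaggaacatccGTTGCCtggaaactgtag
Stk36, chr1:74601466-74601471: acgccgtttctaGGCAACtgaagactctag
Iqcg, chr16:33056200-33056205: cttgcgcgacgcGTTGCCatagctaccgat
Kif9, chr9:110476967-110476972: tgcaggcttcctGTTGCCatggcgactgtg
All 5 lie close to the annotated start. The promoters of Dnahc9, Dnahc11, 1700009P17Rik and Ak7 held none in this window, which says nothing of other positions. Here too a match describes the sequence and does not show binding, and a role of RFX factors in these rises was not tested.

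Dnahc9 (Dnah9 in current annotation), at chr11:65831282-66168551, encodes a dynein heavy chain of the outer arm. It had 2.48, 1.82 and 2.40 FPKM at 4.5DDC and 10.8, 5.94 and 5.97 FPKM at 5.5DDC, and rose by 1.67 ± 0.22 (adjusted p = 0.0178). Every library of 5.5DDC had more than any library of 4.5DDC. Dnahc11, a second outer arm heavy chain, had 2.40, 0.688 and 1.17 FPKM and then 6.34, 2.61 and 1.86 FPKM, and its groups overlapped through replicate 3 of 5.5DDC (log2 fold change 1.63 ± 0.24, adjusted p = 0.0221). Fam183b, a gene of motile ciliated cells, was the most abundant of the 9, with 51.0, 22.9 and 32.3 FPKM and then 121, 79.2 and 87.9 FPKM (log2 fold change 1.46 ± 0.23, adjusted p = 0.0246). Drc1, which encodes a subunit of the nexin-dynein regulatory complex, had 2.30, 0.323 and 0.477 FPKM and then 6.06, 1.98 and 2.70 FPKM, so that replicate 1 of 4.5DDC exceeded replicate 2 of 5.5DDC (log2 fold change 1.94 ± 0.34, adjusted p = 0.0304). Stk36, whose kinase takes part in building the central pair of the axoneme, was the steadiest, at 11.6, 9.51 and 10.8 FPKM and then 15.1, 14.997 and 15.6 FPKM (log2 fold change 0.83 ± 0.16, adjusted p = 0.0382).

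The 4 remaining members that rose were Ak7, 1700009P17Rik, Kif9 and Iqcg, with log2 fold changes between 1.06 and 2.01. Ak7, an adenylate kinase of motile cilia, stayed at or below 1.11 FPKM. For Iqcg, a transcript on the other strand covers 48.1% of the exons, so that its value is uncertain. Foxj1, the master transcription factor of motile cilia, had 8.97, 5.04 and 2.31 FPKM at 4.5DDC and 23.8, 11.2 and 10.6 FPKM at 5.5DDC. Its libraries did not overlap, and its log2 fold change was 1.46 ± 0.32 with an adjusted p of 0.0604. Outside the list, the rises with the largest fold included Daw1 and Dnajb13, further genes of ciliary axonemes, with log2 fold changes of 2.23 and 1.99 (11.16% of the exons of Dnajb13 are covered on the other strand). Of 50 genes of the primary cilium, the single non-beating cilium through which Shh signals, 1 rose, Tctn2 of its transition zone (log2 fold change 0.76 ± 0.15, adjusted p = 0.0489). That 1 of 50 stands against 1.27% of all genes tested. In this list 41 genes had a positive log2 fold change, against 50.5% of all genes, and 12 of them had an unadjusted p under 0.05. In the fit of 6 libraries 10 were called higher, where 9.15% of all genes were. The median was 0.19, and 0.28, 0.36 and 0.11 within replicates 1, 2 and 3. Whether both cilium lists differ was not tested. Its marker Arl13b had a log2 fold change of 0.18 (adjusted p = 0.682).

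**Figure D3:**
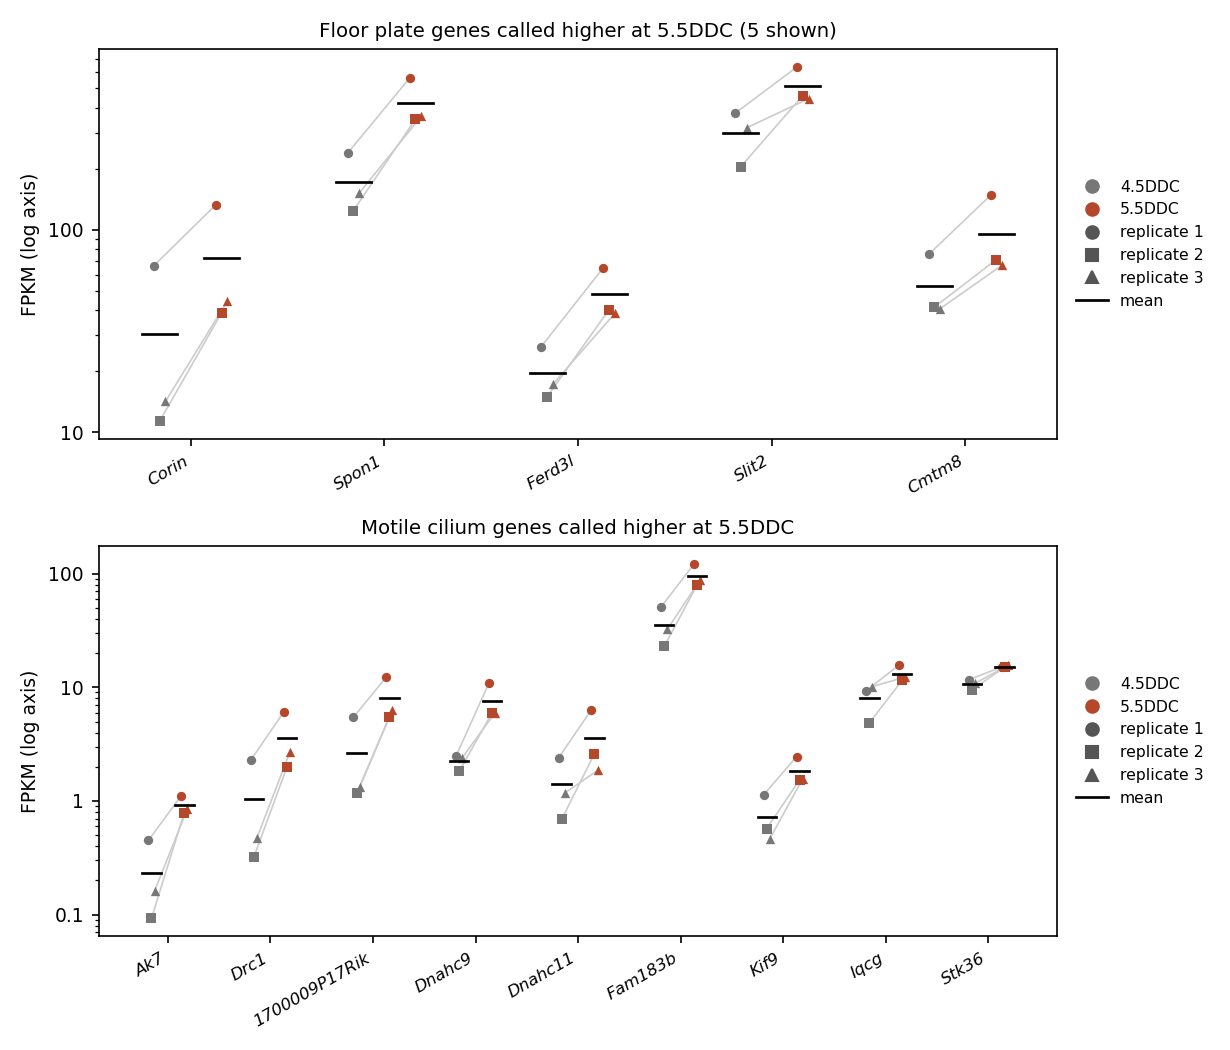
FPKM (log axis) of 5 floor plate genes and the 9 motile cilium genes called higher at 5.5DDC, with each library as a point shaped by replicate number, lines joining libraries of 1 number and bars at the means. Each line goes up, and replicate 1 is the highest library at 5.5DDC for each floor plate gene drawn, as for Corin with 133 against 38.9 and 44.5 FPKM.

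Of 19 genes and targets of the Shh pathway, a list that includes Shh itself, 1 fell, none rose and 13 had a negative log2 fold change. The median was −0.45, with −0.26, −0.65 and −0.16 within replicates 1, 2 and 3. In the fit of 6 libraries 8 were called lower, against 7.37% of all genes, and 1 higher. Gli3, the main transcriptional repressor of the pathway, had 3.32, 3.06 and 3.40 FPKM at 4.5DDC and 1.44, 1.34 and 1.54 FPKM at 5.5DDC, a narrow spread at both times. It fell by 1.41 ± 0.27 (adjusted p = 0.0407). Gli1, the direct target and activator, had 2.34, 8.77 and 3.29 FPKM and then 0.920, 1.85 and 1.72 FPKM, without overlap (log2 fold change −1.60 ± 0.35, adjusted p = 0.0604). Ptch1, the receptor and a target, had a log2 fold change of −0.38 (adjusted p = 0.303).

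Among 9 ventral progenitor homeodomain and bHLH factors, 2 fell and 8 had a negative log2 fold change (median −0.69, and −0.44 and −0.42 without replicates 1 and 2 of 4.5DDC). Within replicates 1, 2 and 3 the median was −0.83, −0.54 and −0.34. Nkx2-9, a homeodomain factor of the same ventral domain as Nkx2-2, had 1.82, 9.18 and 2.93 FPKM at 4.5DDC and 0.500, 1.17 and 0.904 FPKM at 5.5DDC. It fell by 2.38 ± 0.46 (adjusted p = 0.0407), and its 4.5DDC level was led by replicate 2. Olig2, the factor of motor neuron and oligodendrocyte progenitors, had 0.564, 9.97 and 4.45 FPKM and then 0.132, 1.96 and 1.72 FPKM. Replicate 1 was nearly without Olig2 at both times, so the groups overlapped, while its log2 changes within the numbers were −1.84, −2.35 and −1.46 (log2 fold change −2.05 ± 0.41, adjusted p = 0.0482). Both belong, with the desmosomal gene Dsp, to the study's own list of biphasic genes, of which 3 of 58 fell and 57 had a negative log2 fold change (median −0.61). That list was chosen by the study on samples that include these libraries, so its direction is not independent evidence.

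Genes of DNA replication and mitosis mostly had negative log2 fold changes, although none was called. All 49 DNA replication genes tested had a negative log2 fold change, with a median of −0.77, and 40 of them had an unadjusted p under 0.05. None passed the adjusted threshold (0 of 49, smallest adjusted p = 0.0646 from edgeR). In the fit of 6 libraries 43 of the 49 were called lower, against 7.37% of all genes. The median was −0.74, −0.72 and −0.79 within replicates 1, 2 and 3, and the libraries of the time points did not overlap for 46 of the 49, against 13.7% of all genes in this direction. Pcna, the sliding clamp of DNA polymerase, had 131, 174 and 198 FPKM at 4.5DDC and 68.5, 104 and 91.7 FPKM at 5.5DDC (log2 fold change −0.83 ± 0.22, adjusted p = 0.109). Mcm2, a subunit of the replicative helicase, had 64.1, 78.6 and 53.4 FPKM and then 50.2, 48.4 and 46.7 FPKM (log2 fold change −0.47, adjusted p = 0.277). In both, the highest library of 5.5DDC lay below the lowest of 4.5DDC.

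Mitosis genes had a smaller shift: 64 of 65 had a negative log2 fold change, with a median of −0.42 (−0.25 without replicate 3 of 4.5DDC) and within-number medians of −0.44, −0.32 and −0.48, and 13 had an unadjusted p under 0.05. None was called (0 of 65, smallest adjusted p = 0.0863 from edgeR), and 34 were called lower in the fit of 6 libraries, against 7.37% of all genes. Replication-dependent histone genes, whose transcripts mostly lack a poly(A) tail and of which 6 of 70 passed the filter, had mostly positive values, with 5 of the 6 at a positive log2 fold change, a median of 0.37 (0.14 and 0.17 without replicate 1 of 4.5DDC and of 5.5DDC) and none called (1 at an unadjusted p under 0.05). The proliferation marker Mki67 and the cyclin gene Ccnb1 had log2 fold changes of −0.52 and −0.42 (adjusted p = 0.336 and 0.394). From 5.5DDC to 6.5DDC the medians were −0.69 for DNA replication and −0.72 for mitosis genes. Ccnd1, the G1 cyclin of progenitors, had 141, 116 and 99.3 FPKM at 4.5DDC and 109, 62.1 and 62.2 FPKM at 5.5DDC (log2 fold change −0.79, adjusted p = 0.17), and a transcript on the other strand covers 23.36% of its exons. The 1 member of the list of G1 cyclins, CDK inhibitors and their regulators that passed was Mxi1, a MAX-binding antagonist of Myc, which rose from between 7.495 and 8.51 FPKM to between 13.7 and 15.3 FPKM (log2 fold change 0.78 ± 0.14, adjusted p = 0.0302).

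**Figure D4:**
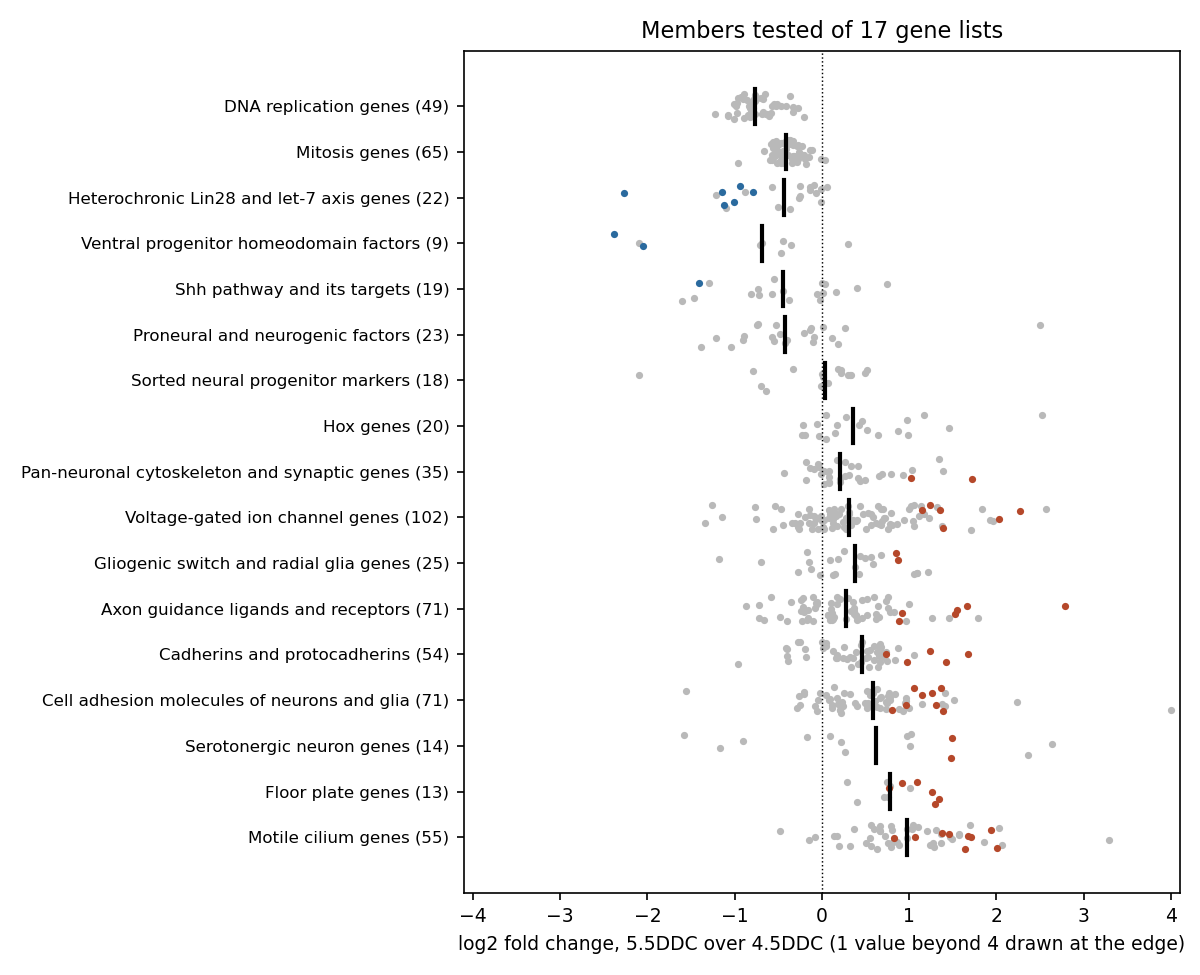
Log2 fold change of 5.5DDC over 4.5DDC of each tested member of the main gene lists, with the number of members in brackets, members called higher in red and lower in blue, others in grey, a black bar at the median of each list and a dotted line at the median of all genes. The DNA replication genes lie wholly below 0, with a median of −0.77, and the floor plate genes wholly above, with a median of 0.78.

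Lists of surface and matrix proteins held 24 of the 187 genes that rose (12.8%) and 276 of all genes tested (1.87%). Of 71 adhesion molecules of neurons and glia, 8 rose and none fell, 61 had a positive log2 fold change and the median was 0.59 (0.40, 0.62 and 0.74 within replicates 1, 2 and 3). Alcam, an immunoglobulin adhesion molecule, had 52.99, 29.0 and 47.1 FPKM at 4.5DDC and 134.4, 97.3 and 92.5 FPKM at 5.5DDC, without overlap, and rose by 1.26 ± 0.20 (adjusted p = 0.0229). Ncam1, the neural cell adhesion molecule, rose by 0.96 ± 0.13 (adjusted p = 0.0186), from 21.8, 34.0 and 31.7 FPKM to 41.3, 62.8 and 69.8 FPKM, and replicate 1 was the lowest at both times. Negr1 and Lsamp, related adhesion molecules of the IgLON family, rose by 1.31 and 0.80, and the latrophilin gene Lphn3, the teneurin gene Tenm2, the neuroligin gene Nlgn1 and Cadm3 rose by 1.15, 1.06, 1.37 and 1.39. Levels of the whole list summed to between 635 and 676 FPKM at 4.5DDC and between 931 and 1050 FPKM at 5.5DDC.

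Of 54 cadherins and protocadherins, 5 rose and none fell, with a median of 0.45 (0.33, 0.51 and 0.50 within replicates 1, 2 and 3). Cdh6 had 47.2, 39.2 and 42.7 FPKM at 4.5DDC and 75.2, 69.7 and 75.1 FPKM at 5.5DDC and rose by 0.74 ± 0.15 (adjusted p = 0.0458). Cdh4, Cdh13, Pcdh8 and Pcdh10 rose by between 0.98 and 1.68, and the libraries of all 5 genes did not overlap. Cdh2, the N-cadherin of the neuroepithelium, had a log2 fold change of 0.32 (adjusted p = 0.324). Among 80 collagens, laminins, integrins and other matrix genes, 5 rose (Col3a1, Col4a5, Nid2, Ncan and Sparcl1) and none fell, with a median of 0.34 (0.20, 0.29 and 0.40 within the numbers). Sparcl1, a matrix protein of radial glia and astrocytes, had 20.98, 12.02 and 15.8 FPKM and then 39.1, 34.6 and 37.6 FPKM (log2 fold change 1.17 ± 0.16, adjusted p = 0.0186), and Col4a5, a basement membrane collagen, rose by 1.17 ± 0.20 (adjusted p = 0.0304).

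Of 71 axon guidance genes 6 rose. The median was 0.28, but 0.08 without replicate 3 of 4.5DDC and 0.14 without replicate 1 of 5.5DDC, and it was 0.23, 0.11 and 0.51 within replicates 1, 2 and 3. Nrp2, a receptor of class 3 semaphorins, had 21.4, 21.8 and 21.1 FPKM at 4.5DDC and 52.2, 71.6 and 71.6 FPKM at 5.5DDC. Its libraries were almost equal within 4.5DDC and all well above that at 5.5DDC, and it rose by 1.55 ± 0.18 (adjusted p = 0.0146). Efnb3, an ephrin of the ventral midline, had 80.4, 41.4 and 47.6 FPKM and then 156, 82.3 and 85.7 FPKM (log2 fold change 0.89 ± 0.17, adjusted p = 0.0405). Robo3, Dcc and Unc5d, receptors of axons that respond to Slit or netrin, rose by 2.78, 1.53 and 1.66 from levels below 1 FPKM, and those of Robo3 and Dcc overlapped between the time points. Slit2 is the sixth member and is described with the floor plate.

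Of 35 pan-neuronal cytoskeletal and synaptic genes, 2 rose: Syt1, the calcium sensor of synaptic vesicle release, from 1.51, 2.72 and 2.45 FPKM to 4.11, 9.64 and 9.76 FPKM (log2 fold change 1.72 ± 0.21, adjusted p = 0.0146), and Cplx2, a complexin, from 30.8, 19.2 and 18.3 FPKM to 52.3, 45.1 and 43.4 FPKM (log2 fold change 1.02 ± 0.17, adjusted p = 0.0293). The list as a whole had a median of 0.21 and differed between the replicate numbers, with −0.30, 0.27 and 0.77, so no direction holds for it. Dcx, which encodes doublecortin of young neurons, had 7.501, 29.96 and 25.7 FPKM at 4.5DDC and 6.44, 37.8 and 38.6 FPKM at 5.5DDC, lowest in replicate 1 at both times (log2 fold change 0.21, adjusted p = 0.598).

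Of 102 voltage-gated ion channel genes, 6 rose and none fell, with a median of 0.31 (0.15, 0.41 and 0.51 within replicates 1, 2 and 3). Scn3a, a sodium channel of immature neurons, had 2.90, 2.96 and 2.43 FPKM and then 7.01, 12.2 and 10.3 FPKM (log2 fold change 1.39 ± 0.16, adjusted p = 0.0146). The potassium channel genes Kcna1 and Kcna5 rose by 2.27 and 1.35 from low levels with overlapping libraries, and Cacnb4, a calcium channel subunit, rose by 1.24. For Kcnd3 the count and FPKM tables differed by more than 1 log2 unit, so its rise is uncertain. Among 67 neurotransmitter receptors and transporters, 5 rose and none fell. The median was 0.44, and it was 0.13 in replicate 1 against 0.45 and 0.70 in replicates 2 and 3. The members described here are Slc17a8, Slc18a2, Drd1a and P2rx6. Transcripts on the other strand cover 15.99% of the exons of Cacnb4 and 13.87% of those of P2rx6. Slc17a8, a vesicular glutamate transporter, had 1.29, 0.566 and 1.93 FPKM and then 2.24, 6.96 and 6.06 FPKM. Its libraries of the 2 times did not overlap, and replicate 1 of 5.5DDC stayed below the other 5.5DDC libraries.

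In the serotonergic list 2 of 14 genes rose, 10 had a positive log2 fold change and 6 were higher at an unadjusted p under 0.05. The median was 0.62, with 0.45, 0.50 and 0.43 within replicates 1, 2 and 3. It was 0.41 without replicate 2 of 5.5DDC and 0.23 in the fit of 6 libraries. In that fit 4 genes were called higher and 3 lower, against 9.15% and 7.37% of all genes. Gata2, a factor of serotonergic and other ventral precursors, had 1.40, 1.67 and 1.22 FPKM at 4.5DDC and 2.73, 5.17 and 5.16 FPKM at 5.5DDC (log2 fold change 1.49 ± 0.27, adjusted p = 0.0366). Slc18a2, the vesicular transporter of monoamines, had 12.4, 4.49 and 5.46 FPKM and then 26.1, 17.04 and 16.8 FPKM (log2 fold change 1.48 ± 0.20, adjusted p = 0.0185). Both were without overlap. Gata3 had a log2 fold change of 1.02 with overlapping libraries (adjusted p = 0.14), and Fev, the factor that commits cells to serotonergic identity, did not exceed 0.319 FPKM in any library (adjusted p = 0.165). The list also held 4 genes with a negative log2 fold change, 3 of them at an unadjusted p under 0.05. These were Ddc, the decarboxylase that makes serotonin, with −0.90 (adjusted p = 0.0909), Maob, which breaks monoamines down, with −1.57 (adjusted p = 0.1002), and Tph1, a tryptophan hydroxylase, with −1.17 (adjusted p = 0.254). Of 19 motor neuron genes 1 rose, Slit2, which the floor plate also makes, and 11 had a negative log2 fold change (median −0.39, with −0.77, −0.23 and 0.49 within replicates 1, 2 and 3). Without replicate 1 of 4.5DDC that median was 0.07, and it was −0.15 and −0.60 without replicates 2 and 3 of 4.5DDC and −0.19 without replicate 1 of 5.5DDC, so no direction holds for it. Isl1 and Phox2a, factors of visceral motor neurons, had log2 fold changes of −0.9996 and −0.93 without overlap (adjusted p = 0.0823 and 0.177). None of 23 proneural factors was called (0 of 23, with 6 of 23 at an unadjusted p under 0.05), and 18 had a negative log2 fold change (median −0.42, but −0.08 and −0.73 without replicates 1 and 3 of 4.5DDC).

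Of 25 glial and radial glial genes 2 rose. The median was 0.39, but 0.21 without replicate 3 of 4.5DDC and 0.18 without replicate 1 of 5.5DDC (0.43, 0.47 and 0.26 within replicates 1, 2 and 3), and none was called without the block or with any of the 6 libraries left out. Sox9, a transcription factor needed for the gliogenic switch, had 2.69, 5.73 and 5.07 FPKM at 4.5DDC and 4.74, 10.002 and 11.1 FPKM at 5.5DDC. It overlapped only through replicate 1 of 5.5DDC, and rose by 0.87 ± 0.18 (adjusted p = 0.0489). Slc1a3, which encodes the glutamate transporter GLAST of radial glia and astrocytes, had 18.7, 13.1 and 12.3 FPKM and then 39.0, 25.8 and 23.5 FPKM, without overlap, and rose by 0.85 ± 0.14 (adjusted p = 0.0283). Nfia, the factor that acts after Sox9 in gliogenesis, had 3.65, 3.01 and 4.15 FPKM and then 9.28, 5.95 and 8.55 FPKM, with a log2 fold change of 1.09 ± 0.22 and an adjusted p of 0.0526. Of 9 oligodendrocyte precursor genes tested, Ptprz1, a receptor phosphatase also found on radial glia, rose by 1.56 ± 0.23 (adjusted p = 0.0221), and Olig2 fell as above. Sox10 is on this list too but was not among the genes tested, since it was listed at 0 in all 6 libraries. Fgfr3 had a log2 fold change of 0.56 (adjusted p = 0.185).

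Retinoid genes moved in both directions, with 2 of 22 rising and 1 falling and medians of −0.20, −0.20 and 0.26 within replicates 1, 2 and 3. Crabp1, a cytoplasmic RA-binding protein, had 162, 323 and 189 FPKM at 4.5DDC and 46.7, 117 and 112 FPKM at 5.5DDC, and fell by 1.42 ± 0.25 (adjusted p = 0.0342) without overlap. Aldh1a2, an enzyme that makes RA, had 0.0611, 2.51 and 0.930 FPKM and then 0.0859, 8.43 and 7.81 FPKM. Replicate 1 held almost none at either time, with a change of 0.28 against 1.71 and 2.91 within replicates 2 and 3, and the fit gave 2.09 ± 0.38 (adjusted p = 0.0366). Dhrs3, which reduces retinal and is induced by RA, rose by 1.76 ± 0.33 (adjusted p = 0.0382), from 0.827, 2.67 and 1.51 FPKM to 1.84, 6.46 and 11.4 FPKM. Among other signals, the ligand gene Wnt4 rose by 1.32 ± 0.16 (adjusted p = 0.0146; 1 of 40 Wnt genes), Nbl1, a secreted BMP antagonist, rose by 1.65 ± 0.33 (adjusted p = 0.0436; 1 of 29 BMP genes), and Ltbp1, which stores latent TGF-beta, fell by 0.72 ± 0.14 (adjusted p = 0.0421; 1 of 31 TGF-beta genes).

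The medians within replicates 1, 2 and 3 fell on both sides of 0 in 25 of the 54 lists, among them the 4 given here. Genes of cholesterol and fatty acid synthesis had medians of −1.07, 0.08 and 0.0027 within replicates 1, 2 and 3, and none of 33 was called (3 of 33 at an unadjusted p under 0.05). Those of glycolysis and hypoxia had −0.69, 0.53 and 0.45, with 1 of 37 called, Mxi1. Cytosolic ribosomal protein genes had 0.45, −0.30 and −0.05, and Hox genes had −0.14, 0.49 and 0.71, with 0 of 80 and 0 of 20 called and 6 and 3 at an unadjusted p under 0.05. Ldha, which makes lactate, had 302, 122 and 133.9 FPKM at 4.5DDC and 76.0, 187 and 194 FPKM at 5.5DDC. Replicate 1 of 5.5DDC was its lowest library and replicate 1 of 4.5DDC its highest, so that it has no direction over this interval. The floor plate, motile cilium, heterochronic and DNA replication groups, by contrast, had medians of the same sign and similar size within each number.

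**Figure D5:**
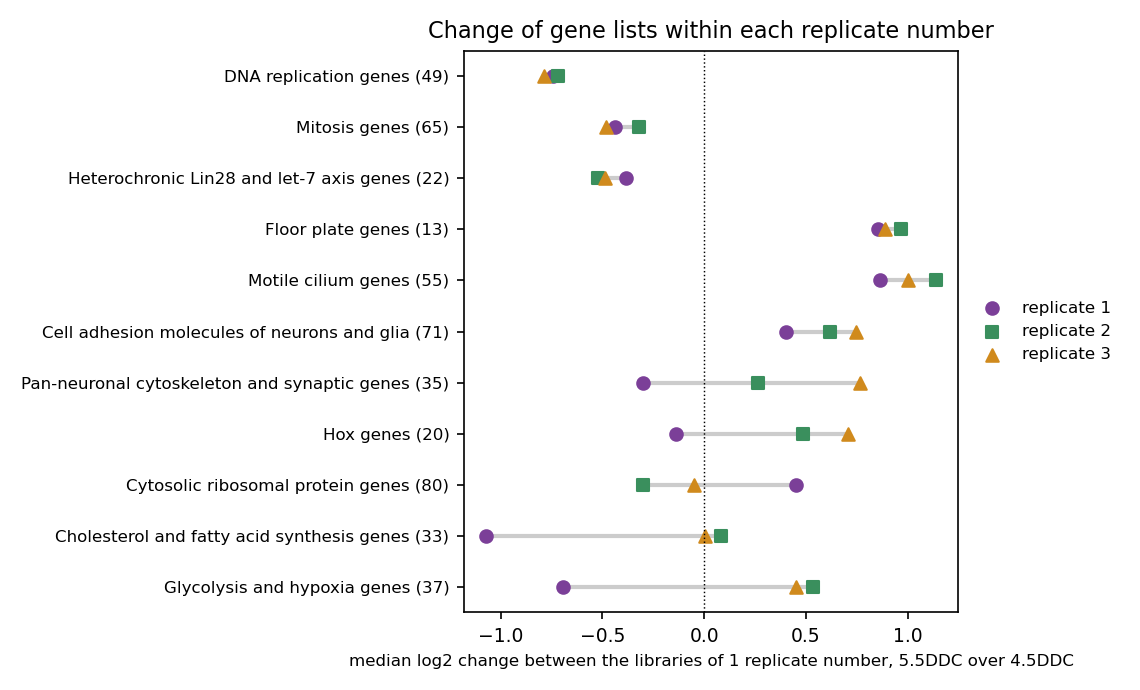
Median log2 change from 4.5DDC to 5.5DDC over the tested members of 11 gene lists, computed between the libraries of 1 replicate number, with members in brackets and a symbol for each number. The upper 6 lists have the same sign in all numbers, whereas the lower 5 cross 0, as for cholesterol and fatty acid synthesis with −1.07 in replicate 1 and 0.08 in replicate 2.

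Of the 212 called genes, 136 were in none of the 54 lists (64.2%), so that the lists cover the smaller part of what was called. The largest fall among the called genes was that of Cyp1b1, a cytochrome P450 that oxidises retinoids and steroids, from 1.02, 4.45 and 1.75 FPKM to 0.0719, 0.544 and 0.695 FPKM (log2 fold change −2.64 ± 0.42, adjusted p = 0.0246). Ptn, which encodes the growth factor pleiotrophin, fell by 1.95 ± 0.30 (adjusted p = 0.0229), from 8.77, 11.7 and 7.38 FPKM to 1.80, 2.62 and 3.01 FPKM. Greb1l, which takes part in RA-dependent organ formation, fell by 1.28 ± 0.16 (adjusted p = 0.015), and Sp8, Spp1, Sytl2, F11r and Slc38a4 fell by between 1.12 and 1.73. The largest rises by fold included 2 processed pseudogenes, Gm8618 and Rpl17-ps4, whose FPKM values hardly moved, so these are uncertain. Pdyn, the precursor of the opioid peptide dynorphin, had 0.615, 0.0922 and 0.142 FPKM and then 5.82, 1.26 and 2.19 FPKM (log2 fold change 3.15 ± 0.52, adjusted p = 0.0277). Cpt1a, the gatekeeper of fatty acid oxidation in mitochondria, had 0.246, 0.458 and 0.607 FPKM and then 2.52, 2.04 and 2.57 FPKM (log2 fold change 2.55 ± 0.39, adjusted p = 0.0221), and Kcnmb2, a subunit of calcium-activated potassium channels, had 0.616 to 0.788 FPKM and then 2.78 to 2.97 FPKM. The libraries of all 3 genes did not overlap. Snx31, Usp18, Sardh, Sntb1, Rph3al, Dpp6 and Nell1 also rose, by between 1.76 and 3.24. Cbln2, a secreted organiser of synapses, rose by 2.88 and was nearly absent from replicate 1 at both times, with 0.0210 and 0.0443 FPKM. Plekha2 rose by 1.76, and a transcript on the other strand covers 26.53% of its exons.

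The second interval, from 5.5DDC to 6.5DDC, had 195 called genes (1.32% of those tested), 116 higher and 79 lower, and shares the 5.5DDC libraries with the first. For no gene was the first change shown to differ from the second (0 of 14742 by edgeR's quasi-likelihood test, smallest adjusted p = 0.712, with 828 genes at an unadjusted p under 0.05 and 2 genes called by DESeq2). Without replicate 3 of 6.5DDC, 235 genes were called in that test. Side by side, the list medians were 0.78 and 0.11 for the floor plate, 0.98 and 0.37 for motile cilia, −0.44 and −0.46 for the heterochronic genes, 0.59 and 0.64 for adhesion molecules and −0.77 and −0.69 for DNA replication.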

How the data were processed

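RNA of prominin-1 sorted progenitors was measured in 3 libraries each of 4.5DDC, 5.5DDC and 6.5DDC, grouped by the sample labels. According to the study's methods and the submitters' processing notes, the authors prepared single-end reads of 50 bases from polyadenylated RNA (bcl2fastq 1.8.3), mapped them to GRCm38 with TopHat2 2.0.4, counted them per gene with HTSeq 0.6.1 and computed FPKM with Cufflinks 2.1.1. The annotation release and the use of strand in the counting are not given in the sources used here. The deposited values were handled like expected counts, since 98 of 38197 symbols were not whole numbers, and they were rounded, although the test had been chosen for whole counts. Deposited FPKM values served as levels, and another table, of log2 values made by the authors with limma voom, was not used.

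Genes were filtered with filterByExpr, scaled by TMM (factors 0.951 to 1.04) and tested with edgeR 4.0.16 in R 4.3.3 (limma 3.58.1, DESeq2 1.42.0) in one quasi-likelihood fit of 9 libraries with the time point and the replicate number of the sample title as factors. The fit left 4 residual degrees of freedom, at a common dispersion of 0.0464. P-values were adjusted over 14742 genes after Benjamini and Hochberg, with 0.05 as the threshold. Changes within a replicate number are log2 ratios of CPM with a prior count of 2. Tables and plots used Python 3.11.15, pandas 2.3.3, numpy 2.4.6 and matplotlib 3.10.9.

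The members and 54 gene lists were chosen with earlier results of these data known. Named are the 20 largest rises and 15 largest falls among called genes that averaged 1 FPKM or more at their higher time point and moved one way in each number, called members of the lists, and 1 or more key genes of a list whatever their values. Outside this rule, Greb1, Igf2bp1 and Hic2 are named for their let-7 matches. Ddc, Maob and Tph1 are named for their negative log2 fold changes in the serotonergic list, and undetected markers of other cell types are named as well.

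Deviations from the time point's mean had correlations over genes of 0.743, 0.386 and 0.452 for same-numbered libraries, all over 0.1, so the number was taken to pair them. Between numbers 2 and 3 they were 0.39 and 0.291 (−0.393 to −0.653 with replicate 1), so that the values set replicate 1 apart but hardly tell 2 from 3, and the labels do not say what a number shares. Depth of 11066568 to 25506193 counts makes 3 counts equal to 0.118 to 0.271 CPM, which covers counting error only. In data simulated for 4.5DDC against 5.5DDC, calls included 101 of 197 tested genes changed by 1 log2 unit (5 false calls, 14526 genes) and 187 of 197 changed by 2 units (13 false calls, 14509 genes). Each gene was drawn at the dispersion of the fitted trend, without added spread of single genes or libraries. Recovery and false calls in the real data may therefore differ. Positions, 3′UTRs and opposite-strand overlaps come from GENCODE M21, which held 209 of the 212 called genes, 203 of them protein coding, and 12 of the called genes had an opposite-strand transcript over at least 10% of their exonic bases. The alternatives were other scalings, filters, tests, units, forms of the block and libraries left out. Results for some genes that the rule covers are not reported here, although they are counted in their lists.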

Additional observations from a re-analysis of the deposited data

How the results depend on the processing

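Of the 212 called genes of the first interval, 211 kept their direction under each of the 21 alternatives that gave them a value. Since all 212 moved in 1 direction within each replicate number, most of these alternatives could hardly reverse them. With a mean of at least 1 CPM, 210 of the 212 had a value. The number of called genes moved with the fit. Without the replicate block 11 genes were called (all among the 212), and the libraries of 1 number were taken as paired in the main result. With the block, the 6 libraries compared gave 2345 genes, a block for replicate 1 only gave 484, no filter on low counts 583, DESeq2 784, and limma on log2(FPKM + 1) and log2(FPKM + 0.1) gave 1 and 7. Replicates 2 and 3 only, an alternative chosen after seeing the data, gave 0 genes (2268 at an unadjusted p under 0.05). Leaving out 1 library gave between 0 and 869 genes. It gave 0 without replicate 2 of 4.5DDC (2195 at an unadjusted p under 0.05) and without replicate 2 of 5.5DDC (1472), 2 without replicate 3 of 5.5DDC, 23 and 36 without replicates 1 and 3 of 4.5DDC, 55 without replicate 1 of 5.5DDC, 114 without replicate 2 of 6.5DDC and 794 and 869 without replicates 1 and 3 of 6.5DDC. The cause was not tested. RLE scaling, library totals, a mean of at least 1 CPM and limma voom gave 215, 201, 218 and 280. The test of the first against the second interval gave 2 genes with no filter, 2 with DESeq2 and between 0 and 235 with 1 library left out, and 0 otherwise. Ldha was at −0.30 on the log2 scale without the block, −0.25 with 6 libraries, −0.34 with voom, −0.28 and −0.28 with the FPKM pseudocounts, and between −0.59 and 0.79 with 1 library left out, and Sox2 between −0.082 and 0.077. With 4 residual degrees of freedom, changes of 1 log2 unit can go uncalled.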

Other observations

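Immediate early genes, which cells induce within minutes of a stimulus, were higher in 19 of 21 cases with a median log2 fold change of 0.26 (0.46 without replicate 3 of 5.5DDC), and none was called (0 of 21 by edgeR, smallest adjusted p = 0.0511, 3 at an unadjusted p under 0.05). Fos had 13.8, 1.90 and 14.5 FPKM at 4.5DDC and 42.0, 16.7 and 17.8 FPKM at 5.5DDC, without overlap (log2 fold change 1.3025, adjusted p = 0.233), and Egr1 had 11.2, 6.06 and 12.7 FPKM and then 33.8, 18.1 and 20.7 FPKM (log2 fold change 1.25, adjusted p = 0.104). Heat shock and unfolded protein genes were lower in 20 of 27 cases (median −0.18, but −0.04 without replicate 3 of 4.5DDC, −0.29 without replicate 2 of 5.5DDC and 0.01 without replicate 1 of 5.5DDC), and p53 targets had a median of 0.03 (between −0.098 and 0.065 with 1 library left out), with Cdkn1a at a log2 fold change of 0.16 (adjusted p = 0.602). Among RNA-binding and splicing regulators of neural cells, 2 of 40 rose beside the falls of Lin28a and Lin28b. These were the cytoplasmic polyadenylation factors Cpeb2, from between 3.66 and 6.18 FPKM to between 7.27 and 10.2 FPKM (log2 fold change 0.80, adjusted p = 0.0435), and Cpeb3, from between 0.891 and 1.40 FPKM to between 2.48 and 3.12 FPKM (log2 fold change 1.15, adjusted p = 0.0414).

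Subunits of Polycomb, BAF and DNA methylation complexes had a median of 0.00037 (−0.057 to 0.083 with 1 library left out) with 27 higher and 27 lower of 54 tested, and Hox cofactors a median of 0.02 (−0.061 to 0.055) over 9 genes. In the imprinted list 1 of 39 genes fell, the amino acid transporter gene Slc38a4, from 7.22, 18.0 and 19.2 FPKM to 4.03, 9.26 and 9.20 FPKM (log2 fold change −1.12, adjusted p = 0.0435), with replicate 1 the lowest at both times. Respiratory chain and mitochondrially encoded genes had medians of −0.11 (−0.25 to 0.0078) over 75 and −0.04 (−0.27 to 0.097) over 8 genes, so none of these 4 medians kept its sign with each library left out. For several key genes of the lists the sign turned under at least 1 alternative, with log2 fold changes between −0.41 and 0.40 and adjusted p of 0.703 or more, so no direction is given for them: Cdkn1c, Cyp26b1, Dll1, Egr2, Elavl4, Gbx2, Id3, Notch1, Nr2f1, Pdgfra, Pecam1, Pgk1, Sox17, Spry2, Tgfb3 and Zfhx3.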
